A study of Mus musculus with 35 samples.

Results

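Fibroblasts of the brain's vessels and inner meninges were taken from 14 libraries of single hippocampal nuclei, and 454 of 142840 barcodes with 500 or more detected genes met the rule. A member had 5 or more UMIs (unique molecular identifiers, each a counted RNA molecule) of Dcn, Col1a2, Col1a1, Slc6a13, Ranbp3l and Lum together, from 3 or more of these genes and making up 0.1% or more of its UMIs. It also had at most 1 UMI of Slc17a7, Gad1 and Gad2 together and at most 3 of Snap25 and Rbfox3, which are neuronal genes. The series asks how a regulatory site of the V-ATPase, the proton pump of the lysosome, bears on tau disease in mice of the C57BL/6 strain. All nuclei came from frozen hippocampus at 9 months. WT mice carried neither alteration (3 libraries), PS19 mice carried a transgene of mutant human tau driven by the Prnp promoter (3 libraries), CLEAR mice carried a mutated CLEAR element, the binding motif of the transcription factor TFEB, in Atp6v1h (4 libraries), and CLEAR_PS19 mice carried both (4 libraries). Each group held 1 female, the last replicate, and otherwise males. Bulk RNA-seq of hippocampus came from WT and PS19 mice at 4 months (6 and 6 libraries) and at 9 months (5 and 4 libraries), with sex not given. The labels do not say whether replicates were separate animals, so p-values measure the spread between these samples, which may be technical.

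Brain fibroblasts lie in the pia and arachnoid and in a thin layer around larger vessels that enter the tissue. They lay down collagens, laminins and proteoglycans of the meningeal and perivascular matrix. They are also known to carry transporters for amino acids, organic anions and sulfate, to make retinoic acid and BMP ligands, and to release Ptgds, a prostaglandin D synthase, into the cerebrospinal fluid. A hippocampal dissection holds them only where meninges or vessels come with the tissue.

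The nuclei were few and uneven. The 14 libraries gave between 6 and 95 fibroblasts, with between 13696 and 356832 UMIs in all, so that 1 UMI was worth between 2.80 and 73.0 CPM, the unit in which counts are scaled to a common library total. Library pairs shared 10 to 70 barcodes, and 0 of these were fibroblasts in both libraries of a pair. Doublets were called as the barcodes of highest Scrublet score, with their number in each library fixed beforehand at 0.8% per 1000 barcodes. They took in 16.3% of the fibroblasts. Of all fibroblasts, 9 also passed the endothelial gate described below, and 0 passed the gate for pericytes and smooth muscle. The doublet calls were uneven. Without them, 3 of 12 fibroblasts were left in WT 1, 23 of 28 in WT 2 and 13 of 15 in WT 3. In PS19 1, 2 and 3 there were 33 of 36, 86 of 95 and 14 of 15 left. In CLEAR_PS19 1 and 2 there were 2 of 7 and 5 of 6 left.

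The nuclei were selected on the UMIs of the 6 rule genes in the same nuclei, so these genes are given as a description. Dcn encodes decorin, a small proteoglycan that binds collagen fibrils. It stood at 699 CPM over all fibroblasts, with a lowest, median and highest library of 141, 577 and 1608 CPM. Slc6a13, a carrier of GABA and taurine, stood at 988 CPM, with a lowest, median and highest library of 766, 1007 and 1592 CPM. Ranbp3l, an export factor for SMAD proteins, stood at 3359 CPM, with a lowest, median and highest library of 1606, 2852 and 4210 CPM. Col1a2, a chain of type I collagen, stood at 340 CPM, and its partner Col1a1 at 138 CPM. Lum, which encodes the proteoglycan lumican, stood at 86.8 CPM. Every library therefore held all 4 of the defining markers Dcn, Col1a2, Slc6a13 and Ranbp3l, with Dcn the most variable of those given by library.

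These genes differed in how far they were particular to the gated nuclei. Of all UMIs of Slc6a13 in the series, 59.8% lay in these 454 nuclei, and of Col1a2 53.0%. For Dcn the figure was 6.73% and for Lum 7.86%. Dcn had a UMI in 71.4% of fibroblasts and in 8.25% of 42847 barcodes with 2 or more Slc17a7 UMIs, which are excitatory neurons. Col1a2 had a UMI in 63.9% of fibroblasts and in 0.152% of those neuron barcodes, and Slc6a13 in 89.0% and 0.168%. Near the threshold, 18 fibroblasts had exactly 5 UMIs of the rule genes and 205 had exactly 3 of the genes. A further 30 barcodes met every other condition with 3 or 4 UMIs, and 162 met them with only 2 of the genes. Of barcodes that met all other conditions, the limit on Slc17a7, Gad1 and Gad2 alone kept out 2, and that on Snap25 and Rbfox3 alone kept out 4. Barcodes that failed both limits were not counted, so the full number kept out by neuronal UMIs was not determined.

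The label was checked against 20 markers of brain fibroblasts, 16 of them outside the rule. All 16 were detected, at 23160 CPM in sum, against 958.5 CPM in endothelial nuclei, 1670 CPM in pericytes and smooth muscle and 156 CPM in the neuron barcodes. Detection itself did not set the classes apart, with 14, 13 and 16 of the 16 detected in these other classes. Most of the fibroblast sum was Ptgds, at 15653 CPM. Ptgds gave 649, 582 and 68.9 CPM of the other sums in the same order. The 4 pial markers summed to 1068 CPM, of which Lama1 alone gave 938 CPM. The 3 arachnoid markers summed to 547 CPM, of which Aldh1a2 alone gave 499 CPM. Of 8 markers of the arachnoid barrier, Wnt10a, Krt8 and Krt18 were at 0 and the others summed to 159 CPM. The 5 dural markers summed to 191 CPM. No list separated fibroblasts around vessels from those of the leptomeninges, so the vascular share of the nuclei was not determined. Of the 8 neuron markers, Rbfox1 and Celf2, singled out after their values were seen, stood at 1674 and 1948 CPM, and the other 6 summed to 289 CPM against 9663 CPM in the neuron barcodes. Endothelial markers summed to 467 CPM against 18330 CPM in endothelial nuclei, with Slco1a4, Cdh5 and Flt1 at 136, 127 and 102 CPM and Cldn5 and Pecam1 at 8.14 CPM each. Of 6 choroid plexus markers, Folr1 and Otx2 were at 0 and the sum was 267 CPM. By library the 6 neuron markers without Rbfox1 and Celf2 summed to 265 to 360.5 CPM in WT, 202 to 348 in PS19, 256 to 557 in CLEAR and 188 to 663 in CLEAR_PS19. Rbfox1 and Celf2 together gave 1522 to 4280, 3086 to 4548, 2084 to 4665 and 1271 to 2482 CPM in the same order.

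Fibroblast transcripts were compared with those of 525 endothelial nuclei and of 406 nuclei of pericytes and smooth muscle, gated in the same way on their own genes and summed per library. With edgeR's quasi-likelihood test, library as block and Benjamini-Hochberg adjustment, 336 of 929 genes were higher in fibroblasts than in endothelial nuclei (36.2% of genes tested) and 343 were lower (36.9%). Against pericytes and smooth muscle, 209 of 564 genes were higher (37.1%) and 176 lower (31.2%), 68.3% in all. Genes that passed the filter on low counts only through the fibroblasts, or only through the other class, had to differ in that direction. List counts and folds of genes that were low in either class, below, are therefore a description and their p is not given. The filter left at most 10 members of any list.

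**Figure D1:**
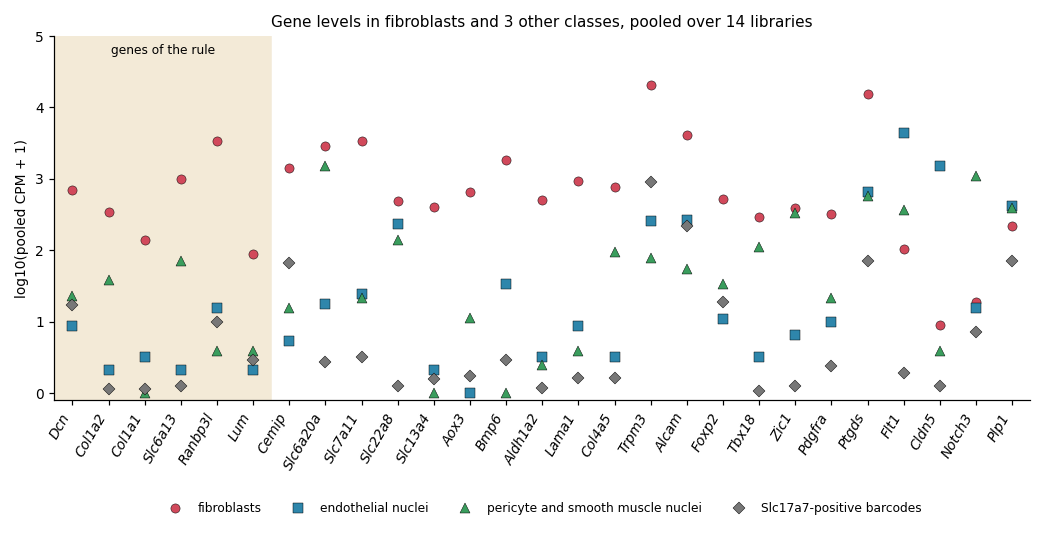
Pooled level of named genes, log10(CPM + 1), in fibroblasts (circles), endothelial nuclei (squares), pericytes and smooth muscle (triangles) and neuron barcodes with 2 or more Slc17a7 UMIs (diamonds), over 14 libraries; the shaded genes belong to the rule. Bmp6 stood at 1832 CPM in fibroblasts and at 0 in pericytes and smooth muscle, while Slc6a20a was high in both.

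Carriers of solutes were mixed. Of 10 carriers and ABC transporters tested against endothelium, 7 were higher and 3 lower, and all 5 tested against pericytes and smooth muscle were higher. Slc7a11, which exchanges cystine for glutamate, had a lowest, median and highest library of 2556, 3486 and 7096 CPM in fibroblasts and of 0, 0 and 111 CPM in endothelial nuclei. The ranges did not overlap, and the log2 difference was 7.63 (SE 0.43). Slc6a20a, a proline carrier, ranged from 1658 to 4767 CPM in fibroblasts and from 0 to 86.6 CPM in endothelium, a log2 difference of 7.48. It ranged from 1016 to 2776 CPM in pericytes and smooth muscle, so there the difference was only 0.86 (SE 0.15, adjusted p = 5.93e-06). Slc22a8, an organic anion transporter, was higher by 1.22 than in endothelium, in 13 of 14 libraries, and by 1.98 than in pericytes and smooth muscle. The sulfate carrier Slc13a4 had 586 UMIs in fibroblasts and 1 in endothelial nuclei. The 3 carriers that were lower than in endothelium were Slc2a1, the glucose transporter of the blood-brain barrier (-5.37), Slco1c1, which carries thyroid hormone (-5.96), and Abcc4 (-3.90).

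Basement membrane genes divided by chain. Against endothelium 6 of the 7 tested were higher and Col4a1 was lower. Lama1, the laminin chain typical of the pial basement membrane, had a lowest, median and highest library of 656, 1164 and 2764 CPM in fibroblasts and of 0, 0 and 32.9 CPM in endothelial nuclei. The log2 difference was 7.02 (SE 0.33), and pericytes and smooth muscle had 2 UMIs of Lama1 in all. Col4a5 and Col4a6, chains of a less common type IV collagen, had 1118 and 963 UMIs in fibroblasts and 2 and 5 in endothelial nuclei, and both were also higher than in pericytes and smooth muscle (3.17 and 3.60). Col4a1, a chain of the common type IV collagen, was lower than in endothelium by 0.71 on the log2 scale (-0.71, SE 0.24). Lama2 and Lama4, laminin chains of muscle and vessels, did not pass the test against pericytes and smooth muscle (0.13 with adjusted p = 0.485, and 0.07 with adjusted p = 0.754). Lamc1, another laminin chain, was lower than in pericytes and smooth muscle (-0.50, SE 0.18, adjusted p = 0.0142, edgeR). Other matrix genes were mixed. Cped1, Cemip (a hyaluronan-degrading protein) and Efemp1 were higher than in endothelium, and Fn1 (fibronectin, -3.33) and Sparc (-0.69) were lower.

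Signalling genes and transcription factors gave the next group. Bmp6, a BMP ligand, had a lowest, median and highest library of 796, 1674 and 2314 CPM in fibroblasts and 0 UMIs in pericytes and smooth muscle, at least 413-fold higher against a floor of 3 counts over the class. Against endothelium it was higher by 6.34 (SE 0.44). Of 6 genes of the BMP and TGF-beta pathway tested against endothelium, Bmp6, Tgfbr1 and Tgfbr3 were higher, and the receptor Bmpr2 and the BMP targets Id1 (-5.25) and Id3 were lower. Aldh1a2, which makes retinoic acid, had 736 UMIs in fibroblasts, 2 in endothelium and 1 in pericytes and smooth muscle. Pdgfra, the PDGF receptor of fibroblasts, was higher than in endothelium by 5.23, and Pdgfrb, the receptor of pericytes, was lower than in pericytes and smooth muscle (-2.79). All 3 genes of the IGF pathway tested against endothelium were lower (Igf1r, Igfbp7 and Insr), whereas Igf1r was higher than in pericytes and smooth muscle (1.12, adjusted p = 1.75e-06, in 13 of 14 libraries). Foxp2, Tbx18, Zic1, Zic4 and Tcf7l2 were higher than in endothelium among 8 transcription factors tested, and Ebf1 and Lef1 lower. Zic4 differed from pericytes and smooth muscle by 0.16 (adjusted p = 0.403), with 336 and 316 pooled CPM.

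Secreted and immune genes followed. Ptgds stood at 15653 CPM in fibroblasts and 649 CPM in endothelium, higher in 14 of 14 libraries (4.48, SE 0.34, adjusted p = 3.05e-11, edgeR). Apod, a lipid-binding secreted protein, and Il34, a ligand of the microglial receptor Csf1r, were higher than in endothelium by 3.05 and 4.94, but Il34 was lower than in pericytes and smooth muscle (-0.43, adjusted p = 0.0296). The chemokine Cxcl12 was lower (-2.93). Both genes of MHC class I and the interferon response that were tested, H2-D1 and Ifitm3, were lower than in endothelium. Their median libraries stood at 66.3 and 91.9 CPM in fibroblasts and at 481 and 535 CPM in endothelium. The limit on filtered genes given above applies to them, so their direction is a description. Among the 15 genes of largest fold against endothelium were also Aox3, an aldehyde oxidase, with 966 UMIs against 0, at least 196-fold higher by the same floor, and Trpm3, a cation channel. Trpm3 stood at 20318 CPM, with libraries from 4425 to 26973 CPM. Its endothelial libraries ranged from 0 to 1203 CPM.

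The 454 fibroblasts fell into 7 clusters, which are left unnamed and whose leading genes are a description. Cluster 1 (161 nuclei) was led by Cacna1e, Nat8f7 and Fmo1. Cluster 2 (90 nuclei) was led by Cyp26b1, which degrades retinoic acid, at 338 CPM against 24.3 CPM in the other fibroblasts. Cluster 3 (77 nuclei) had Nr1h4, Scube1, Col4a1 and other genes in the lead. Its Col4a1 was 404 CPM against 53.3 CPM elsewhere, its Lama1 2405 CPM, and its Trpm3 419 CPM against 33410 CPM in cluster 2. Cluster 4 (51 nuclei) was led by Mgp and Eln, which encode a calcification inhibitor of the matrix and elastin, at 894 and 641 CPM. It had 1996 CPM of Dcn and 35250 CPM of Ptgds, 33.3% of its nuclei were called doublets, and its Ttr, a choroid plexus marker, was 311 CPM against 31.1 CPM in the other fibroblasts. Rplp0, Edf1, Tmsb10 and Tpt1 were also among its 10 leading genes, its median mitochondrial share was 0.217% against at most 0.0489% in the other clusters, and ribosomal genes took 2.62% of its UMIs against at most 0.588%. Cluster 5 (44 nuclei) was led by Serpina1b, Alk and, lower on the list, Bnc2, a zinc finger protein, at 1859 CPM against 159 CPM.

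Clusters 6 and 7 held 20 and 11 nuclei, and 95% and 90.9% of them were called doublets. Their median UMIs were 5960 and 6354, above the medians of 2418 to 3838 in clusters 1 to 5. Oligodendrocyte, border macrophage and microglia markers summed to 3719, 1216 and 1021 CPM in cluster 6, and astrocyte and oligodendrocyte precursor markers to 3897 and 3786 CPM in cluster 7. These sums set clusters 6 and 7 beside other cell types, and genotype results below were also fitted without them.

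Cluster shares varied widely between libraries. Clusters 2 and 5 together held 0%, 21.4% and 0% of the fibroblasts of the 3 WT libraries and 25%, 48.4% and 13.3% of the PS19 libraries. They held 31.0%, 18.2%, 44.6% and 28.6% in CLEAR and 0%, 0%, 7.5% and 25% in CLEAR_PS19. Cluster 3 held 66.7%, 28.6% and 53.3% of the WT and 8.33%, 10.5% and 53.3% of the PS19 libraries. It held 2.38%, 6.82%, 5.43% and 21.4% in CLEAR and 57.1%, 16.7%, 27.5% and 50% in CLEAR_PS19. These shares rest on as few as 6 nuclei and were not tested, since the genes that define the clusters differed between the groups. The WT and CLEAR_PS19 libraries held most of the low values for clusters 2 and 5, with ranges that overlapped those of the other groups.

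**Figure D2:**
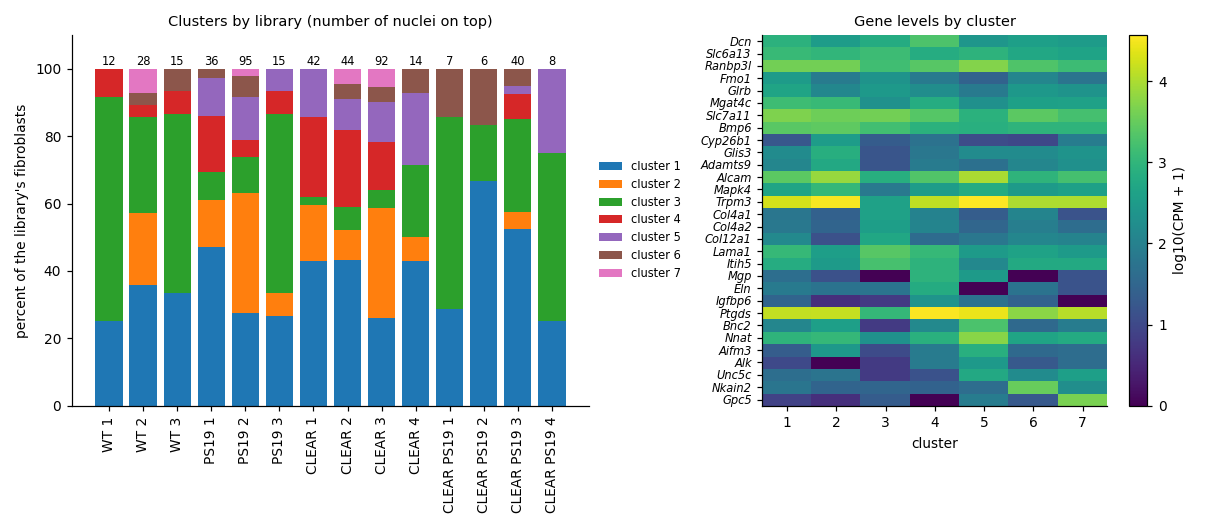
Left, percent of each library's fibroblasts in clusters 1 to 7, with the number of nuclei above each bar. Right, pooled log10(CPM + 1) of named genes in each cluster, for instance Trpm3 at 419 CPM in cluster 3 and 33410 CPM in cluster 2.

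The share of barcodes that were fibroblasts addressed whether either alteration went with more or fewer of them. It was 0.108%, 0.371% and 0.167% for WT and 0.324%, 0.941% and 0.167% in PS19. It was 0.433%, 0.453%, 1.12% and 0.140% in CLEAR and 0.0532%, 0.0373%, 0.466% and 0.0832% in CLEAR_PS19. All 4 groups overlapped, with CLEAR 3 and PS19 2 highest and CLEAR_PS19 1 and 2 lowest. The means were 0.215% ± 0.138 (SD, n = 3) for WT, 0.477% ± 0.409 (n = 3) for PS19, 0.538% ± 0.416 (n = 4) for CLEAR and 0.160% ± 0.205 (n = 4) for CLEAR_PS19. Averaged over both backgrounds, libraries with tau differed by -0.0579 percentage points (exact permutation test, two-sided, p = 0.704, adjusted p = 0.990). Libraries with the CLEAR mutation differed by 0.00235 points (exact permutation test, two-sided, p = 0.990, adjusted p = 0.990). With labels permuted within the 3 library sets, described below, the differences were -0.144 points for tau and 0.152 for CLEAR (exact permutation test, two-sided, p = 0.472 and 0.528). Neither difference exceeded the spread between libraries, and the sign of the tau difference turned without PS19 3 (0.0197) or without CLEAR 3 (0.0399). The means ran in opposite directions in the backgrounds, with PS19 above WT and CLEAR_PS19 below CLEAR. An average over both backgrounds cannot show such a pattern, and an interaction in the share was not tested. The endothelial and the pericyte and smooth muscle shares did not pass the same exact permutation test for either alteration either (p between 0.0661 and 0.944). How much meninges and vessel each dissection held was not tested, and it cannot be told apart from the number of these cells in the animal.

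**Figure D3:**
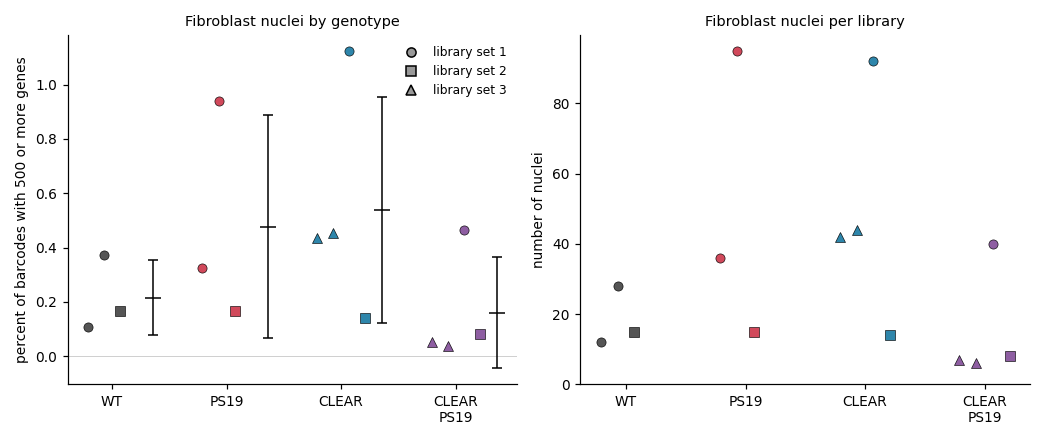
Left, percent of barcodes with 500 or more genes that were fibroblasts, by library (points, with a shape for each of 3 sets of libraries) and genotype, with mean and SD; right, number of fibroblasts per library. Values run from 0.0373% in CLEAR_PS19 2 to 1.12% in CLEAR 3, and all groups overlap.

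The altered genes themselves were too low for the fit across genes. Atp6v1h, which holds the mutated element, gave 73.1 CPM in WT (12 UMIs, exact 95% Poisson interval 37.8 to 128), 86.2 CPM in PS19 (44 UMIs, 62.7 to 116), 64.2 CPM in CLEAR (39 UMIs, 45.6 to 87.7) and 57.3 CPM in CLEAR_PS19 (11 UMIs, 28.6 to 103), where intervals cover counting error only. The intervals overlapped. On log2(CPM + 50), CLEAR libraries differed by -0.39 (exact permutation test, two-sided, p = 0.225, adjusted p = 0.360 over 6 tests), so no fall of Atp6v1h was detected. What size of fall could be detected at this depth was not tested. Prnp, whose promoter drives the transgene, gave 67.0, 68.6, 69.1 and 109 CPM in the same order. Mapt gave 6.09 CPM in WT from 1 UMI, 54.9 CPM in PS19, 80.6 CPM in CLEAR and 52.1 CPM in CLEAR_PS19. Averaged over both backgrounds, tau libraries differed by 0.01 in Prnp and 0.37 in Mapt (exact permutation test, adjusted p = 0.961 and 0.360). Pooled Mapt was higher in PS19 than in WT but lower in CLEAR_PS19 than in CLEAR, which an average cannot show. The counts cannot show whether the human transgene was read as mouse Mapt.

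Few genes differed between genotypes within fibroblasts. A single edgeR fit of 2111 genes across the 14 libraries, with sex as a covariate, called 1 gene for PS19 against WT (0.0474%), 3 for CLEAR_PS19 against CLEAR (0.142%; 1 higher, 0.0474%, and 2 lower, 0.0947%), 0 for CLEAR against WT and 4 for CLEAR_PS19 against PS19 (0.189%). The tau effect and the CLEAR effect, each averaged over both backgrounds, gave 0 calls, with 71 and 101 genes at an unadjusted p under 0.05 and with 0 calls for either in DESeq2. DESeq2 called 8 genes for CLEAR against WT, where edgeR left 187 at an unadjusted p under 0.05. The 5 genes of smallest p there were Nnat (2.70), Bnc2 (2.91), Adra1a (-2.27), Ror2 (-1.52) and Slc38a2 (1.73), with adjusted p of 0.0617 for the first 3 and 0.0685 for the others. For the averaged tau effect the gene of smallest p was Cadps2, a protein of vesicle release (-1.31, adjusted p = 0.383), and for the averaged CLEAR effect Hs3st3a1, which modifies heparan sulfate (-2.09, adjusted p = 0.582). Next after the called genes stood Cadps2 (-2.06, adjusted p = 0.0745), Bnc2 (2.77, adjusted p = 0.136), Pde8b and Unc5c for PS19 against WT, Ppp1r1a (-2.61) and Macrod1 (-2.64, both adjusted p = 0.0770) for CLEAR_PS19 against CLEAR, and Mapk4 (-1.78, adjusted p = 0.0672) for CLEAR_PS19 against PS19. The comparisons share libraries, so their gene lists are not independent. Over the alternatives, given at the end, calls ran from 0 to 5 for PS19 against WT and from 0 to 49 for CLEAR_PS19 against CLEAR. They ran from 0 to 18 for CLEAR against WT and from 0 to 41 for CLEAR_PS19 against PS19. The averaged tau and CLEAR effects gave 0 to 3 and 0 to 10.

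The call for PS19 against WT was Alcam, a cell adhesion molecule of the immunoglobulin family (chromosome 16, 52248996 to 52454074, minus strand, GRCm38). Its levels were 1522, 2416 and 458 CPM in WT and 5923, 5697 and 5598 CPM in PS19. All 3 PS19 libraries stood above all 3 WT libraries, and the log2 difference was 2.04 (SE 0.37, adjusted p = 0.0337). The call was lost, at an unchanged direction, without any 1 of WT 1, WT 3, PS19 1, PS19 2, PS19 3 or CLEAR_PS19 4, with adjusted p between 0.0509 and 0.314. It was also lost without the sex term (adjusted p = 0.0608), without PS19 2 and CLEAR 3 together (0.0680), and without the nuclei of clusters 2 and 5, where the difference was 1.39 (adjusted p = 0.747, over alternatives from 9.18e-06 to 0.747). In CLEAR the levels were 3434, 2828, 4463 and 5249 CPM and in CLEAR_PS19 2212, 1923, 1971 and 1460 CPM, so with the mutation the tau libraries stood below the others. Markers of other cells also differed between these libraries. Endothelial markers summed to 40.1 to 287 CPM in WT and 304 to 462 CPM in PS19, and to 235 to 754 CPM in CLEAR and 94.2 to 345 CPM in CLEAR_PS19. Oligodendrocyte markers summed to 143 to 240.4 CPM in WT, 249 to 459.6 CPM in PS19, 205 to 1257 CPM in CLEAR and 146 to 3578 CPM in CLEAR_PS19. WT and PS19 did not overlap in the endothelial or the oligodendrocyte sum, as 10.9% of all genes tested did not between these groups. The oligodendrocyte gap, from 240.4 to 249 CPM, was smaller than 1 UMI in WT 1, which is 40.1 CPM. The lowest endothelial sum in WT was 1 UMI. Microglia, border macrophage, astrocyte, oligodendrocyte precursor, neuron, and pericyte and smooth muscle sums overlapped between WT and PS19. The part of these cells in the genotype results was not tested.

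The difference between these 2 tau effects was tested as an interaction, the effect of PS19 with the CLEAR mutation minus that without it. It called 15 genes (0.711%), of which 3 were higher (0.142%) and 12 lower (0.568%). Alcam gave -3.33 (SE 0.49, adjusted p = 0.00213, edgeR). Bnc2 (chromosome 4, 84275095 to 84675275, minus strand) gave 160, 51.2 and 48.2 CPM in WT and 415, 459.6 and 487 CPM in PS19. It gave 227, 256, 581 and 1085 CPM in CLEAR and 0, 0, 169 and 73.0 CPM in CLEAR_PS19. The interaction was -4.93 (SE 0.80, adjusted p = 0.00393). The counts behind these levels were 4, 5 and 2 UMIs in WT and 0, 0, 24 and 1 in CLEAR_PS19, against 16 to 164 in PS19 and 23 to 204 in CLEAR. In CLEAR_PS19 1, 2 and 4 a floor of 3 UMIs is 141, 199 and 219 CPM, close under the 227 CPM of CLEAR 1, so the gap between these groups is limited by depth. Of the 12 genes lower in the interaction, 8 had at most 3 UMIs in these 3 libraries. Bnc2 kept its call in the 26 alternatives in which it was tested, but without the nuclei of clusters 2 and 5 it was too low to be tested.

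Sdk1, a homophilic adhesion molecule of the immunoglobulin family (chromosome 5, 141241490 to 142215586, plus strand), followed the same order. It gave 200, 584 and 434 CPM for WT, 829.5, 967 and 761 CPM in PS19, 908, 802, 1050 and 557 CPM in CLEAR and 94.2, 199, 345 and 73.0 CPM in CLEAR_PS19. Neither pair of groups overlapped, and the interaction was -3.00 (SE 0.50, adjusted p = 0.00393). Sdk1 was also called lower in CLEAR_PS19 than in CLEAR (-2.02, adjusted p = 0.0117) and than in PS19 (-2.01, adjusted p = 0.0291), as was Alcam (-1.75, adjusted p = 0.0291). Against PS19, Sdk1 lost its call in 9 of 27 alternatives and Alcam in 11 of 27. Both lost it without PS19 1, PS19 2, CLEAR_PS19 2 or CLEAR_PS19 4 and without the sex term, and Alcam also without PS19 3 and with the library set as a block (-1.58, adjusted p = 0.114). Without the nuclei of clusters 2 and 5 the differences were -0.93 for Sdk1 and -0.84 for Alcam (adjusted p = 0.958 and 0.903, the highest over the alternatives, the lowest being 0.000192 and 2.08e-06). Wdr17, a protein of WD repeats, gave 493, 488, 763 and 1056 CPM in CLEAR and 141, 66.3, 113 and 0 CPM in CLEAR_PS19. The latter stood wholly below the former (-2.90, adjusted p = 0.0117), and its interaction was -3.77. Both Sdk1 and Wdr17 lost the call for CLEAR_PS19 against CLEAR when the 3 libraries of under 10 fibroblasts were left out (-1.41 and -2.59, adjusted p = 0.372 and 0.147) and without the nuclei of clusters 2 and 5 (-1.40 and -2.65, adjusted p = 0.301 and 0.0711, over alternatives from 0.000111 to 0.372 and from 8.2e-07 to 0.147). All 3 of these libraries are CLEAR_PS19, so that fit holds 1 CLEAR_PS19 library, which is assumed to vary like the others.

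Nnat, the imprinted gene for neuronatin, gave 481, 348 and 120.5 CPM in WT and 1933, 1477 and 122 CPM in PS19. It gave 3020, 2282, 1551 and 792 CPM in CLEAR and 47.1, 597, 760 and 657 CPM in CLEAR_PS19. The female PS19 library lay within the WT range, and the interaction was -3.94 (adjusted p = 0.00885). Egfr, the receptor of epidermal growth factor, gave an interaction of -2.96 (adjusted p = 0.0217) and was lower in CLEAR_PS19 than in PS19 (-2.48, adjusted p = 0.0291), at 0, 66.3, 77.4 and 0 CPM against 348, 294 and 274 CPM. The call against PS19 was lost in 9 of 26 alternatives, among them without PS19 1, PS19 2, CLEAR_PS19 2 or CLEAR_PS19 4, and the interaction in 6 of 26, among them without WT 1, WT 3 or PS19 1 (adjusted p up to 0.396 and 0.146). The other genes with a negative interaction were Rapgef5, an exchange factor for Rap GTPases (-4.11), Aifm3 (-3.65), Prdm6 (-3.39), Rcan2, a regulator of calcineurin (-3.30), Sema3a, a guidance ligand (-2.85), and Mapk4, an atypical MAP kinase (-2.40). Their calls were lost in 14 of 27 alternatives for Sema3a, 11 of 26 for Prdm6, 9 of 27 for Mapk4, 7 of 27 for Rcan2, 5 of 20 for Aifm3 and 2 of 26 for Rapgef5. Hs3st3a1 was called lower in CLEAR_PS19 than in PS19 (-3.73, adjusted p = 0.0352), with 1 of 4 CLEAR_PS19 libraries and 2 of 3 PS19 libraries above 0, and lost the call in 4 of 15 alternatives, among them without CLEAR_PS19 2.

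Col4a2, Col12a1 and Ror2 were the 3 calls in the other direction. Col4a2, a chain of the common type IV collagen (chromosome 8, 11312805 to 11449287, plus strand, overlapping Col4a1), gave 200, 113 and 241 CPM for WT, 66.4, 64.5 and 152 CPM in PS19, 49.3, 41.4, 65.5 and 58.6 CPM in CLEAR and 282, 265, 246 and 219 CPM in CLEAR_PS19. All 4 CLEAR_PS19 libraries stood above all 4 CLEAR libraries (1.98, SE 0.39, adjusted p = 0.0321), while WT and PS19 overlapped. The counts behind these Col4a2 levels were 6, 4, 35 and 3 UMIs in CLEAR_PS19 and 5, 5, 23 and 2 in CLEAR. The 219 CPM of CLEAR_PS19 4 is its floor of 3 UMIs, so this gap too is limited by depth. Its interaction was 2.96 (adjusted p = 0.0156), which was lost in 10 of 27 alternatives (adjusted p up to 0.252), among them without WT 3, PS19 1, PS19 2, CLEAR 1 or CLEAR 2. The call against CLEAR was lost in 16 of 26 alternatives, among them leaving out any CLEAR library (adjusted p = 0.0887 to 0.107, over alternatives from 0.0141 to 0.377). Col12a1, a collagen that sits on fibrils, gave 601, 154 and 386 CPM for WT, 149, 95.3 and 60.9 CPM in PS19, 78.9, 49.6, 108 and 58.6 CPM in CLEAR and 612, 796, 148 and 730 CPM in CLEAR_PS19. Its interaction was 3.75 (adjusted p = 0.0217), lost in 4 of 27 alternatives (adjusted p up to 0.265), and neither pair of groups overlapped. Ror2, a receptor for Wnt5a, gave an interaction of 2.07 (adjusted p = 0.0480). The call was lost in 14 of 27 alternatives, 7 of them single libraries left out (WT 1, WT 3, PS19 1, PS19 3, CLEAR 3, CLEAR_PS19 1 or CLEAR_PS19 4), with adjusted p up to 0.337. The 3 WT libraries, at 594 to 1162 CPM, stood above the 3 PS19 libraries, at 265 to 456 CPM. Without called doublets the interactions of Col4a2, Col12a1 and Ror2 were not called (adjusted p = 0.192, 0.0779 and 0.0953, edgeR). That of Egfr was not called there either (adjusted p = 0.146, edgeR).

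Of the 15 genes, 10 had WT and PS19 libraries that did not overlap (10.9% of all genes tested), 12 had CLEAR and CLEAR_PS19 libraries that did not overlap (6.54%), and 8 had both (1.18%). The interaction chose these genes, so the counts describe them. The libraries were divided into 3 sets, a number fixed in the setting, by clustering the summed profiles of the neuron barcodes. The third set was CLEAR 1, CLEAR 2, CLEAR_PS19 1 and CLEAR_PS19 2, with no WT or PS19 library. Library set and the CLEAR mutation are therefore partly confounded in comparisons across the mutation and in the interaction. The other 2 sets held all 4 genotypes, and 1 of these was the 4 female libraries, with 1 library a genotype. The interaction of Alcam was -5.29 there and -2.73 in the other set, that of Bnc2 -5.66 and -3.26, and that of Nnat -0.262 and -2.90. These libraries chose the genes, so the values within sets are a description.

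**Figure D4:**
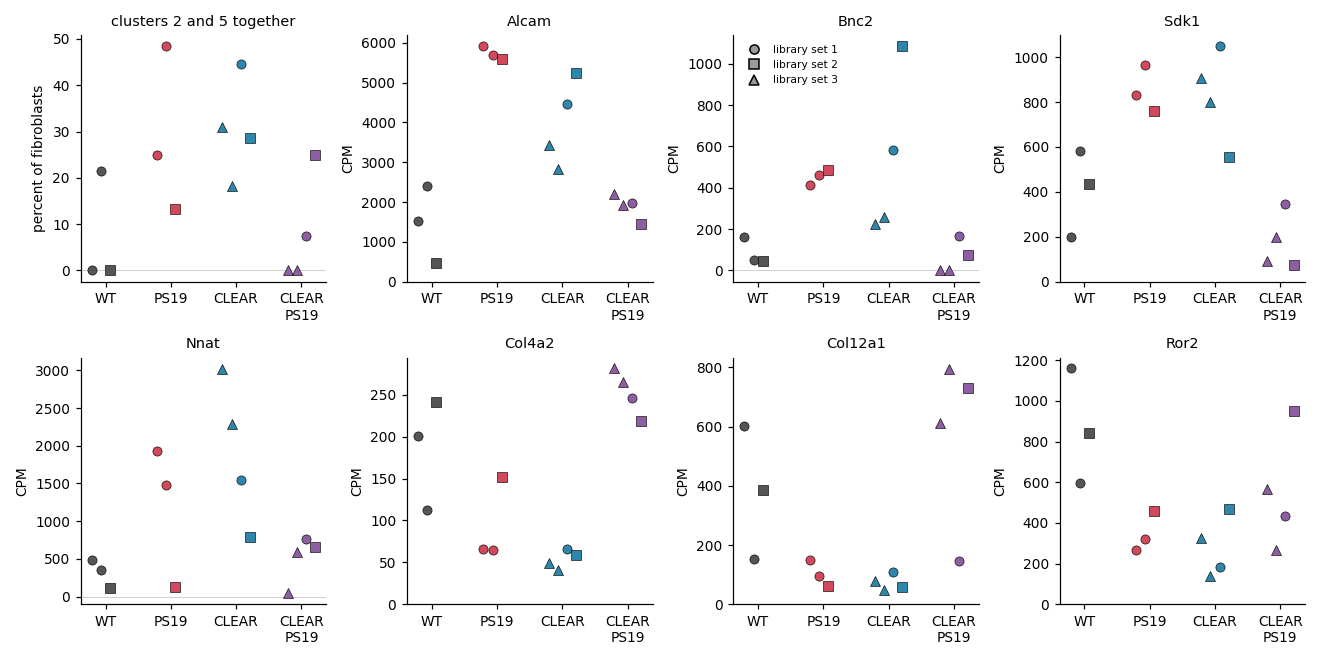
Percent of fibroblasts in clusters 2 and 5 together and CPM of 7 genes with an interaction, by library (points) and genotype, with a marker shape for each of 3 sets of libraries. Bnc2 is at 415 CPM or more in PS19 and at 227 CPM or more in CLEAR, above the WT and CLEAR_PS19 libraries, and Col4a2 is at 219 to 282 CPM in CLEAR_PS19 and at 41.4 to 65.5 CPM in CLEAR.

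The levels of the 15 genes with an interaction differed between clusters. Among clusters 1 to 5, all 12 genes of negative interaction were highest in cluster 2 or 5, as were 33.0% of the 2111 genes tested, and all 3 of positive interaction were highest in cluster 3, as were 35.9%. The 6 neuron markers without Rbfox1 and Celf2 summed to 225 and 302 CPM in clusters 2 and 5 and to 283 to 350 CPM in clusters 1, 3 and 4. Rbfox1 and Celf2 together went the other way, at 6714 and 4672 CPM in clusters 2 and 5 and at 2279 to 2851 CPM in clusters 1, 3 and 4. Endothelial markers summed to 610 and 1104 CPM in clusters 2 and 5 against 131 to 479 CPM in clusters 1, 3 and 4. Flt1, Pecam1, Adgrl4, Tek, Mecom, Ptprb and Abcb1a were highest in cluster 5, with Flt1 at 312.5 and Abcb1a at 151 CPM. Slco1a4 was highest in cluster 2 and Cdh5 and Cldn5 in cluster 4, with Cldn5 at 0 in cluster 2 and at 20.8 CPM in cluster 5. Alcam stood at 7283 and 9911 CPM in clusters 2 and 5 and at 733 CPM in cluster 3. Sdk1 stood at 1398 and 1953 CPM against 0, and Bnc2 at 372 and 1859 CPM against 5.05. Col4a2 stood at 359 CPM in cluster 3 and at 28.2 and 31.3 CPM in clusters 2 and 5. In a fit without the nuclei of clusters 2 and 5, 0 of 1527 genes were called for the interaction, with 112 at an unadjusted p under 0.05 by edgeR. There 10 of the 15 genes were still tested and all 10 had the same sign, with Alcam at -2.01 (adjusted p = 0.230, over alternatives from 1.78e-11 to 0.230). Some differences there were near those in all nuclei, with Rcan2 at -3.54, Nnat at -3.10, Col12a1 at 3.09 and Col4a2 at 2.43, and others smaller, with Sdk1 at -1.23 and Wdr17 at -1.78. Leaving out clusters 6 and 7 instead gave 29 calls. The clusters were made from these same genes, and the part of cell mix in the interaction was not tested.

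By list, hardly any member passed the test between genotypes. Of 12 basement membrane genes tested, 1 passed in CLEAR_PS19 against CLEAR (0.142% of all genes) and in the interaction (0.711% of all genes), Col4a2. The list's median interaction was 1.14 and that of all genes -0.08, and its median for PS19 against WT was -0.62 beside -0.00 for all genes. Of 6 interstitial collagens, 1 passed in the interaction, Col12a1, which is also the sole called gene among 7 of the scar list. No member passed in any of the 7 contrasts among 9 proteoglycans and elastic matrix genes, 15 transporters, 11 genes of the BMP and TGF-beta pathway, 8 complement and chemokine genes, 20 mesenchymal transcription factors or 3 subunits of the V-ATPase, with edgeR. These tests do not show that the lists did not differ. The summed brain fibroblast markers ranged from 21350 to 25450 CPM in WT, 19530 to 24950 in PS19, 28390 to 51530 in CLEAR and 15490 to 32640 in CLEAR_PS19.

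Bulk RNA-seq gave a second set of samples that the rule did not use, at 9.63 to 17.2 M counted reads a library. In bulk tissue, fewer cells of a type and less RNA per cell cannot be told apart. At 9 months 1239 of 16133 genes were higher in PS19 than in WT (7.68%) and 821 lower (5.09%), and at 4 months 3 genes were called (0.0186%). Of the 20 brain fibroblast markers 2 were higher in PS19 at 9 months, a share near the 7.68% of all genes, and none was lower. Their median log2 difference was 0.49 beside -0.01 for all genes. At 4 months edgeR and DESeq2 called 0 of the 20, at a median of -0.14.

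Serping1, the inhibitor of complement C1, was the clearer of the 2. It gave 17.8, 20.4, 14.7, 8.65 and 7.02 CPM in WT at 9 months and 25.6, 31.4, 22.5 and 40.7 CPM in PS19. All PS19 libraries stood above all WT libraries, and the log2 difference was 1.11 (SE 0.26, adjusted p = 0.00557, edgeR). At 4 months Serping1 stood at 13.1 ± 2.35 CPM in WT and 11.4 ± 3.81 CPM in PS19 (SD, n = 6 each), and the difference of the 2 ages was 1.31 (adjusted p = 0.0272, edgeR; 5.41% of all genes were called for this difference, 4.37% higher and 1.04% lower). The call for the difference was lost without WT replicate 4 or PS19 replicate 5 at 9 months and without WT replicate 5 or PS19 replicate 6 at 4 months. Bgn, the proteoglycan biglycan (X chromosome, 73483602 to 73495933), gave 31.8, 31.6, 23.0, 12.3 and 17.7 CPM in WT and 48.7, 34.9, 38.5 and 56.7 CPM in PS19 at 9 months. The groups did not overlap (0.91, SE 0.24, adjusted p = 0.0126, edgeR). Without PS19 replicate 5 the adjusted p was 0.0673, over alternatives from 0.00711 to 0.104.

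The rule genes themselves did not pass the test in bulk. Slc6a13 gave 23.1, 23.1, 13.8, 6.14 and 4.86 CPM in WT and 30.2, 27.0, 27.2 and 30.2 CPM in PS19 at 9 months (0.99, adjusted p = 0.0684, edgeR). The PS19 libraries stood above the WT libraries without overlap. Dcn gave 65.2 ± 12.6 CPM (SD, n = 5) in WT and 77.8 ± 22.6 CPM (n = 4) in PS19, with overlap (0.23, adjusted p = 0.381, edgeR). Col1a2 gave 23.5 ± 12.04 and 34.9 ± 6.21 CPM (0.55, adjusted p = 0.275, edgeR), and Ptgds 771 ± 546 and 1276 ± 284 CPM (0.70, adjusted p = 0.346, edgeR).

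The WT libraries at 9 months differed among themselves. WT replicates 4 and 5 at 9 months had 857 and 737 CPM of the 20 markers in sum, and WT replicates 1, 2 and 3 had 2138, 2157 and 1405 CPM against 1926 to 2777 CPM in PS19. WT replicates 3, 4 and 5 thus lay below the PS19 range. Ptgds alone gave 1235, 1307, 924, 216 and 171 CPM of these sums in WT replicates 1 to 5 and 1075 to 1688 CPM in PS19. Igf2 gave 98.4 to 349 CPM in WT and 293 to 397 CPM in PS19. Among nuclei, Ptgds had a UMI in 42.5% of neuron barcodes, so the sum cannot be read as fibroblast content. Ttr, the most abundant choroid plexus transcript, stood at 4080, 3983, 588, 4597 and 4402 CPM in WT replicates 1 to 5 and at 4143 to 5412 CPM in PS19. In a fit without WT replicates 4 and 5, added after the data were seen, 0 of the 20 markers were called at 9 months. Serping1 then differed by 0.76 (adjusted p = 0.0549) and Bgn by 0.62 (adjusted p = 0.104, edgeR), and 0 markers were called for the difference of the ages. Microglia markers were higher at 9 months for all 6 of 6, MHC class I and interferon genes for 23 of 26 and complement and chemokine genes for 10 of 23, beside 7.68% of all genes, and the part of other cells in Serping1 and Bgn was not tested.

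**Figure D5:**
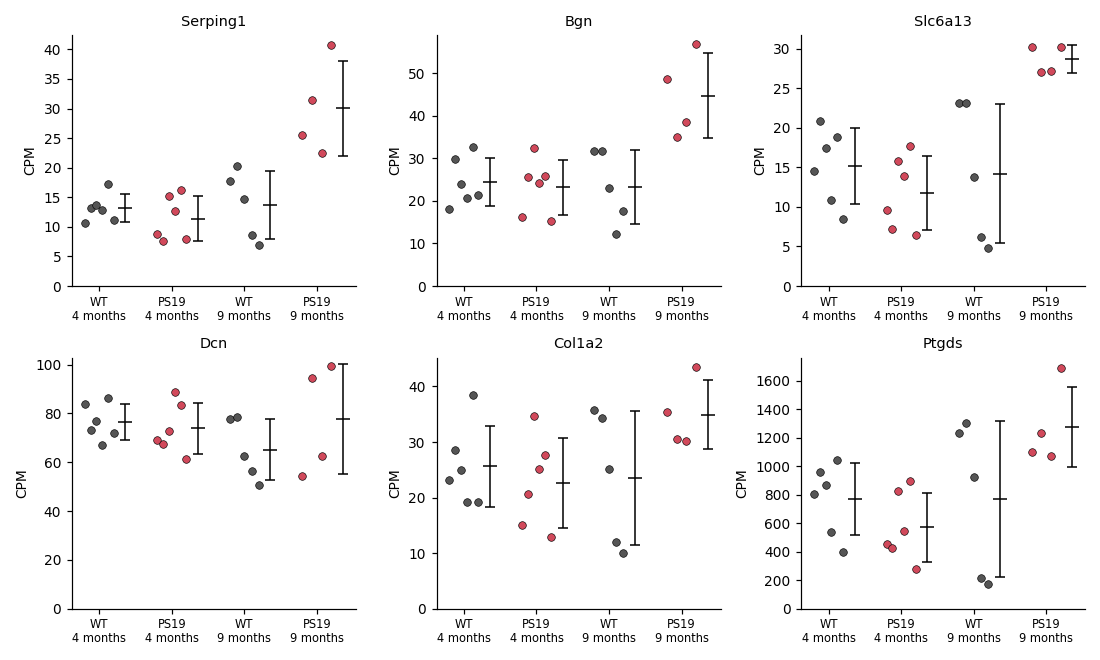
CPM of 6 fibroblast genes in bulk hippocampus by library (points), with mean and SD, for WT and PS19 at 4 and 9 months. Serping1 and Bgn at 9 months lie higher in all 4 PS19 libraries than in all 5 WT libraries, while Dcn overlaps.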

How the data were processed

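Nuclei were sequenced with 10x 3' v3 chemistry and the authors deposited matrices of UMI counts. Their headers name Cell Ranger 5.0.1. The bulk tables hold read counts per gene, which the authors made with featureCounts 2.0.0, per the header of 1 of the 21 tables. That header states unstranded counting, so reads of overlapping antisense genes cannot be told apart. Seurat, cutadapt, STAR and DESeq2 stand in the submitters' processing notes. The fibroblast rule was applied to the deposited counts. Members and gene lists were chosen with earlier results of these data known.

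Member counts were summed per library and tested with edgeR 4.0.16 (quasi-likelihood, TMM, filterByExpr, Benjamini-Hochberg at 0.05) in R 4.3.3, with genotype group and sex as terms. CPM per library are plain shares of the sum, and log2 differences are fitted. Clusters came from scanpy 1.11.5 (1000 variable genes, 10 components, 15 neighbours, Leiden resolution 0.4). Doublets were called by rank of the Scrublet score, at a number set by the barcodes of the library, and were kept unless stated. Bulk libraries were fitted by genotype and age. Named were the rule genes, Atp6v1h, Prnp and Mapt, up to 15 called genes of each genotype comparison by p or, where under 5 were called, the 5 of smallest p, the 15 of largest fold against each vessel class among called genes of 100 CPM or more, and members of the lists. The scripts were tested on simulated data. Alternatives were DESeq2 1.42.0, other filters, scalings, blocks and gates, and each library left out. Positions are from GRCm38. The result of 1 list member is not reported here.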

Additional observations from a re-analysis of the deposited data

Results flagged for a closer look

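A sample far from the others of its group was seen in 3 of 126 groups tested, and chance flags about 1 in 20. The fibroblast share of CLEAR_PS19 3 was 0.466%, far above the other 3 CLEAR_PS19 libraries. Rcan2 stood at 98.5 CPM in CLEAR_PS19 3 and at 0 in the other 3 libraries of that group, which held 6 to 8 fibroblasts each. In bulk, Cemip stood at 25.9 CPM in WT replicate 3 at 9 months, below the other 4 libraries at 39.4 to 42.9 CPM.

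The tau effect differed between mice with and without the CLEAR mutation, by the interaction term, for 15 genes in fibroblasts. The difference was negative for Alcam (-3.33), Bnc2 (-4.93), Sdk1 (-3.00), Wdr17 (-3.77), Nnat (-3.94), Rapgef5 (-4.11), Egfr (-2.96), Rcan2 (-3.30), Aifm3 (-3.65), Mapk4 (-2.40), Sema3a (-2.85) and Prdm6 (-3.39). It was positive for Col4a2 (2.96), Col12a1 (3.75) and Ror2 (2.07). In bulk, the tau effect on Serping1 differed between 9 and 4 months by 1.31 on the log2 scale.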

How the results depend on the processing

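Counts of genes called between genotypes moved with the processing, and the cause was not tested. For PS19 against WT (1 gene) they were 2 with DESeq2, 5 with no filter on low counts, 0 without the sex term, 2 with the library set as a block, 2 with 10 or more UMIs of the rule genes, 5 without libraries of under 10 fibroblasts, 0 without clusters 2 and 5, 4 without clusters 6 and 7 and 0 without PS19 2 and CLEAR 3. For CLEAR_PS19 against CLEAR (3) they were, with DESeq2, no filter and the set block, 21, 49 and 8, without doublets 14, without the small libraries 0, without clusters 2 and 5 1 and without clusters 6 and 7 12. For CLEAR against WT (0) they were 8 with DESeq2, 18 with no filter, 3 with library size alone, 1 with the set block, 3 with 10 UMIs, 7 without nuclei of the vessel gates, 7 without doublets, 5 without the small libraries, 10 without clusters 6 and 7 and 2 without the largest pair. For CLEAR_PS19 against PS19 (4) they were 19 with DESeq2, 41 with no filter, 0 without sex, 2 with 10 UMIs, 0 without the small libraries, 0 without clusters 2 and 5, 7 without clusters 6 and 7 and 0 without the largest pair. With no filter the averaged tau and CLEAR effects gave 3 and 10. The interaction (15) gave 36 with DESeq2, 74 with no filter, 23 without doublets, 0 without clusters 2 and 5, 29 without clusters 6 and 7 and 9 without the largest pair.

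Leaving out 1 library at a time gave 0 to 3 calls for PS19 against WT, 2 to 13 for CLEAR_PS19 against CLEAR (13 without CLEAR_PS19 3), 0 to 8 for CLEAR against WT, 0 to 25 for CLEAR_PS19 against PS19 (25 without CLEAR_PS19 3, 0 without PS19 1 or PS19 2) and 10 to 30 for the interaction (30 without WT 2, 29 without CLEAR_PS19 3). Against endothelial nuclei 679 calls became 3515 with no filter, 374 without doublets and 527 to 646 without 1 library. Against pericytes and smooth muscle 385 became 2324 with no filter and 311 to 379. Of the bulk markers 1 to 4 were called at 9 months (1 without PS19 5, 4 without WT 1) and 0 to 2 for the difference of ages (0 without WT 4 or PS19 5 at 9 months, or WT 5 or PS19 6 at 4 months). Without WT 4 and 5 both were 0.

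The CLEAR difference in fibroblast share was -0.000597 points after thinning to 2000 UMIs, -0.0095 without doublets and -0.0954 to 0.118 without 1 library. The tau difference was -0.174 to 0.0399. Share values rest on 6 to 95 nuclei.

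Same-numbered libraries deviated together in some pairs only. In fibroblast sums r ran from -0.169 to 0.245 (median 0.0535, 5 of 19 pairs over 0.1). In bulk it ran from -0.424 to 0.503 (median 0.0318, 9 of 28). Pairs of unlike number had medians of -0.0318 (10 of 54 over 0.1) and -0.00303 (38 of 136). Same-numbered WT and PS19 libraries gave 0.0535, 0.245 and 0.128 in fibroblast sums. In bulk at 4 months they gave 0.503, 0.297, -0.203, 0.304, -0.424 and 0.4. As the sign varied, the numbers were not taken to pair samples. With the replicate block the counts were 2 for PS19 against WT, 23 for CLEAR_PS19 against CLEAR, 27 for CLEAR_PS19 against PS19, 5 for the averaged CLEAR effect, 26 for the interaction and 2 for the bulk difference of ages, and the shares differed by -0.104 (tau) and 0.0814 (CLEAR).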
